A study of Mus musculus with 6 samples.

Results

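The 10 genes described here encode the Shank, SAPAP and Homer scaffolds of the excitatory synapse: Shank1, Shank2 and Shank3, Dlgap1 to Dlgap4 (the SAPAP family), and Homer1 to Homer3. They were picked by symbol from 54134 counted symbols, and all 10 were among the 18705 genes with enough reads to be tested. The counts come from ribosome-depleted total RNA of mouse prefrontal cortex, sequenced as 6 bulk libraries from mice aged 6 to 8 weeks. The groups of 2 libraries each were Shank3 +/∆C mice given GSK-LSD1, Shank3 +/∆C mice given vehicle, and wild-type mice (C57BL/6 x C3H) given vehicle. Both mutant groups carry 1 germline copy of a C-terminal Shank3 deletion. GSK-LSD1 inhibits LSD1 (Kdm1a), a histone demethylase. The labels give neither the dose, the deleted exons nor the strain of the mutants, so genotype and strain background cannot be told apart. No wild-type group was given GSK-LSD1. Mutants given GSK-LSD1 therefore differ from wild type in genotype and drug at once, which that comparison cannot tell apart. Levels are CPM, each library's counts scaled by TMM to a common total, given as mean ± SD of 2 libraries where a mean is shown. Log2 fold changes carry a standard error, and a gene was called at an edgeR adjusted p under 0.05 over all tested genes.

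These proteins form the deep layer of the postsynaptic density. SAPAP proteins bind the guanylate kinase domain of the PSD-95 family on one side and the PDZ domain of Shank on the other. Shank proteins carry ankyrin repeats, an SH3 and a PDZ domain, a proline-rich stretch and a SAM domain through which they polymerise. Homer proteins bind that proline-rich stretch, and also metabotropic glutamate receptors and inositol trisphosphate receptors, through an EVH1 domain. Long Homer forms assemble through a coiled coil, while a short Homer1 form that neuronal activity induces lacks it and loosens the lattice. Loss of SHANK3 in people is tied to Phelan-McDermid syndrome and autism, and mice without Dlgap3 overgroom.

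The sequences around 1 listed start of each of 3 members are shown because the results turn on these genes. Homer1 is the activity-regulated member, Shank3 is the mutated gene, and Dlgap4 is 1 of the 2 members that were called. RefSeq (GRCm38.p6) lists 10 start regions for 7 of the 10 members, each 300 bases long (250 before and 50 after the start). The Dlgap4 and Homer1 windows lie inside the annotated genes, at internal starts, while the Shank3 window spans the start of the gene. Capitals mark TGACG, the core of the cAMP response element that CREB binds, searched on both strands.
Homer1, chr13:93303507-93303806, plus strand: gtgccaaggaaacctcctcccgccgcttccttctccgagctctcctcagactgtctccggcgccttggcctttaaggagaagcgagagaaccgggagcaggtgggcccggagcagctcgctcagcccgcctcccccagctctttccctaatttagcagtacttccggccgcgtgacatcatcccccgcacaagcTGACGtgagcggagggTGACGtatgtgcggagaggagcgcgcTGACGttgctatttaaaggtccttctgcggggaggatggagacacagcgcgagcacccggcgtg
Shank3, chr15:89499358-89499657, plus strand: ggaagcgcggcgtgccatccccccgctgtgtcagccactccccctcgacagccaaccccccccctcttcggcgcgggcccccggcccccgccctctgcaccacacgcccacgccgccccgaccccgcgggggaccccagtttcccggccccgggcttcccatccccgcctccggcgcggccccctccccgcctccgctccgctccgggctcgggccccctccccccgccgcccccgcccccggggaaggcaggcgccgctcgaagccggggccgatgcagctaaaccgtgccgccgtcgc
Dlgap4, chr2:156720715-156721014, plus strand: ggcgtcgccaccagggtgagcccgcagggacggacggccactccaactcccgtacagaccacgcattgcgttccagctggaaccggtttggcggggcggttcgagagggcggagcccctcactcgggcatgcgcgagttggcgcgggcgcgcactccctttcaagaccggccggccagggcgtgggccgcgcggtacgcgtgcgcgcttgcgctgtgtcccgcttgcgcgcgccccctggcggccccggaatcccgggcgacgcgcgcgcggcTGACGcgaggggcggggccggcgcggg
The Homer1 window held 3 TGACG matches, the Dlgap4 window 1 and the Shank3 window 0. Of 32851 such windows in the RefSeq table, 20.81% held at least 1 match and 1.035% held 3 or more. A second listed Homer1 start region held 0 matches. The Shank3 and Dlgap4 windows were 81% and 76.33% G or C with 40 and 50 CpG pairs, and the Homer1 window was 63% with 26, against medians of 52.67% and 7 over all windows. A match describes letters in a window and does not show that a factor binds there.

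Some features of the libraries touch every result below. They held 14133834 to 28646960 counted reads. Markers of cortical excitatory neurons (6 of 6 present, Slc17a7 and Camk2a among them) summed to 2726 to 3761 CPM. Oligodendrocyte markers (12 of 12 present) summed to 2504 and 5873 CPM in the mutants given GSK-LSD1, 6178 and 6230.5 CPM in the mutants given vehicle, and 2711 and 2462 CPM in wild type. GSK-LSD1 replicate 1 thus sat at the wild-type level and the other 3 mutant libraries well above it. Excitatory neuron markers summed to 3174 and 2726 CPM with GSK-LSD1 and 3075 and 3091 CPM in mutants given vehicle, against 3761 and 3566 CPM in wild type. Astrocyte markers (10 of 10 present) were at 5331 and 5386 CPM with GSK-LSD1 and 5349 and 5535 CPM in mutants given vehicle, against 3911 and 4824 CPM in wild type. In both of these lists the wild-type libraries did not overlap the 4 mutant libraries, as also held for Shank1, Dlgap1, Dlgap2, Dlgap4 and Homer3 described below. Such separation from wild type was common, at 46.2% of all tested genes under vehicle and 45.8% with GSK-LSD1. The share of all tested genes separated in both at once was not computed. The part of these cell types in the results of those members was not tested. A sum is weighted towards its most abundant genes. Under vehicle the mean of Slc17a7 was 1349 CPM in mutants and 1799 CPM in wild type. Of the 6 excitatory markers 5 had negative log2 fold changes there and 1 a positive one, with Camk2a at -0.05 and Neurod6 at 0.06. Of the 10 astrocyte markers 9 were positive and 1, Sox9, was negative (-0.10). Fewer cells of a type, less RNA per cell and changes of single marker genes cannot be told apart from sums in bulk tissue.

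Per length, Dlgap3 was the highest of the 10 genes and Homer3 the lowest. On the scale of CPM per kilobase of exons, averaged over all 6 libraries, Dlgap3 reached 64.5 ± 3.93 (SD, n = 6), Dlgap1 33.0 ± 2.65 and Homer1 26.0 ± 1.26. Dlgap4 followed at 23.1 ± 3.97, Shank1 at 22.1 ± 5.97, Shank2 at 17.7 ± 2.51 and Shank3 at 17.1 ± 1.12. Dlgap2 lay at 14.0 ± 2.50, Homer2 at 8.48 ± 0.850 and Homer3 at 0.893 ± 0.253. From Homer1 down to Dlgap2 each gene overlapped its neighbour in the order between libraries, so these neighbours do not differ beyond their spread. Genes further apart in that stretch could be separate: the lowest Homer1 value (23.98) lay above the highest of Shank2 (22.2), Shank3 (19.0) and Dlgap2 (17.8). Dlgap3, Dlgap1, Homer2 and Homer3 were each separated from the next gene in every library. Dlgap3 and Dlgap1 changed places when the longest coding transcript was used as the length, because the annotated exons of Dlgap1 add up to 17.9 kb and its longest coding transcript to 7.17 kb.

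Shank3 itself (chromosome 15, 89499623 to 89560261, plus strand) had like levels in all 3 groups, as counted over the whole gene. All gene coordinates are in GRCm38. It had 159 and 148 CPM in mutants given GSK-LSD1, 146 and 174 CPM in mutants given vehicle, and 153 and 159.9 CPM in wild type. The wild-type libraries lay inside the range of the mutant libraries. Its log2 fold change was 0.03 ± 0.11 for mutants against wild type under vehicle (edgeR adjusted p = 0.937). The 95% interval of that difference, -0.20 to 0.26, corresponds to 0.872-fold to 1.20-fold. With a correction for exonic length and GC content in each library, that difference was 0.20 (edgeR adjusted p = 0.469). Mutants given GSK-LSD1 differed from those given vehicle by -0.06 ± 0.11 (adjusted p = 0.999) and from wild type by -0.03 ± 0.11 (adjusted p = 0.949). The longest exon block of the gene (2.53 kb) makes up 27.5% of its exonic length, and the labels do not place the deletion within the exons. The count covers the whole gene, so sequence outside a C-terminal deletion is counted as well. The Shank3 level is therefore only a weak check of the genotype labels.

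Shank1 and Shank2, the other members of the family, had lower means in both mutant groups than in wild type, and no comparison of either passed the test. Shank1 (chromosome 7, 44310253 to 44360572, plus strand) had 158 and 201 CPM with GSK-LSD1, 211 and 233 CPM in mutants given vehicle, and 345 and 242 CPM in wild type. The 3 groups did not overlap, and wild-type replicate 1 stood far above replicate 2. The log2 fold change was -0.71 ± 0.17 for GSK-LSD1 against wild type (adjusted p = 0.0576), -0.40 ± 0.17 for vehicle-treated mutants against wild type (adjusted p = 0.314) and -0.31 ± 0.17 for GSK-LSD1 against vehicle (adjusted p = 0.949). The first of these passed in 9 of 19 alternative fits. Without wild-type replicate 1 it was -0.43, and without replicate 2 it was -0.95. The value for vehicle-treated mutants against wild type was -0.13 without wild-type replicate 1, and -0.64 (adjusted p = 0.0308) without replicate 2. Shank2 (chromosome 7, 144001928 to 144424494, plus strand) had 163 and 174 CPM with GSK-LSD1, 176 and 199 CPM in mutants given vehicle, and 239 and 194 CPM in wild type. Its vehicle-treated mutant and wild-type libraries overlapped, and its log2 fold change for GSK-LSD1 against wild type was -0.36 ± 0.12 (adjusted p = 0.123). For vehicle-treated mutants against wild type it was -0.21 ± 0.12 (adjusted p = 0.457), and -0.05 without wild-type replicate 1.

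Shares within a library do not depend on how libraries are scaled. Of the length-scaled Shank sum, Shank1 took 31.7% and 37.2% with GSK-LSD1, 38.4% and 37.2% in mutants given vehicle, and 45.8% and 39.4% in wild type. Shank3 took 36.4% and 31.4% with GSK-LSD1, 30.3% and 31.8% in mutants given vehicle, and 23.2% and 29.8% in wild type. Shank2 stayed between 30.8% and 31.9% in all 6 libraries. All 4 mutant libraries thus had a lower Shank1 share and a higher Shank3 share than both wild-type libraries. The counts of Shank1 were 0.997 and 1.36 times those of Shank3 with GSK-LSD1, 1.45 and 1.34 times in mutants given vehicle, and 2.26 and 1.51 times in wild type.

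**Figure D1:**
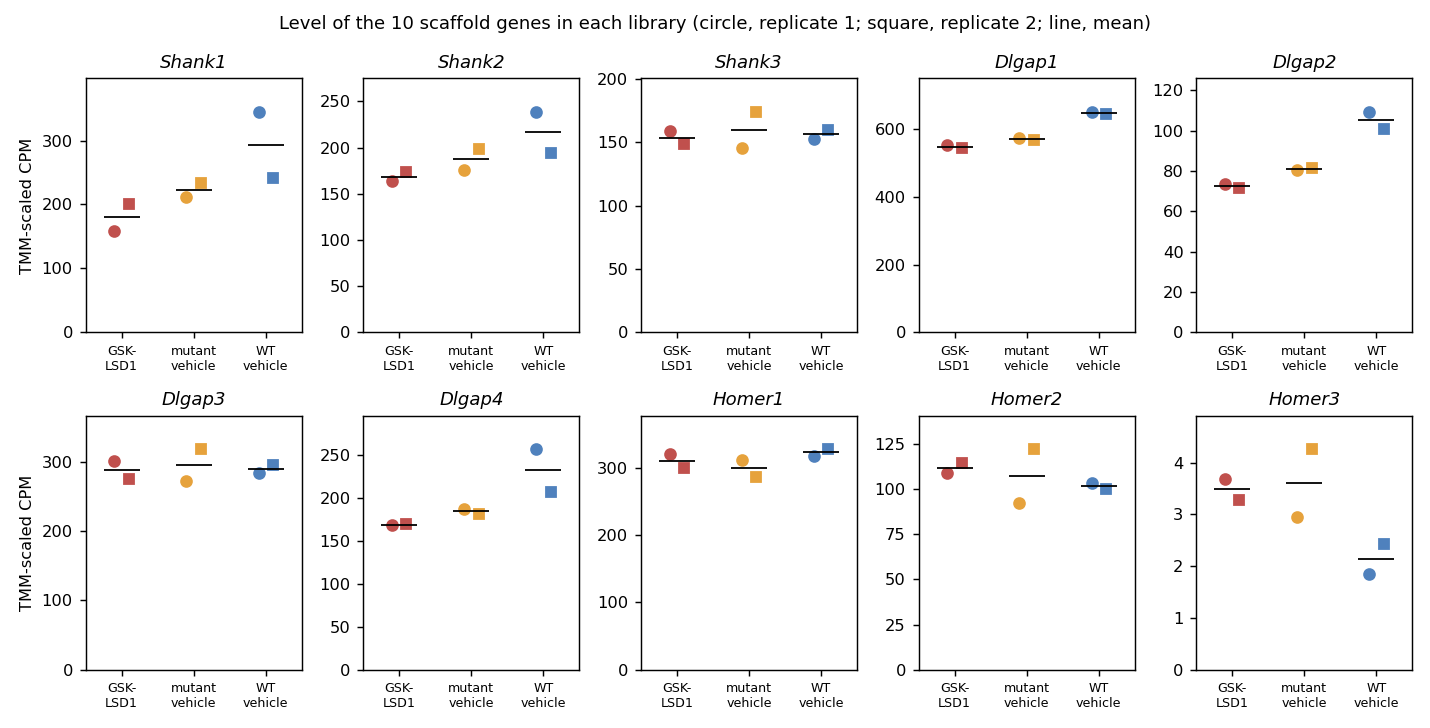
TMM-scaled CPM (vertical axes, each from 0) of the 10 scaffold genes in each library, with mutants given GSK-LSD1, mutants given vehicle and wild type given vehicle from left to right; circles are replicate 1, squares replicate 2 and lines group means. Shank1, Dlgap1, Dlgap2 and Dlgap4 sit lower in all 4 mutant libraries than in both wild-type libraries, while Shank3 and Dlgap3 sit level.

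Among the SAPAP genes, Dlgap2 and Dlgap4 fell in mutants given GSK-LSD1 compared with wild type, Dlgap1 had the same sign without passing, and Dlgap3 lay level. Dlgap2 (chromosome 8, 14095865 to 14847680, plus strand), a SAPAP gene listed among autism candidates, had 73.5 and 71.8 CPM with GSK-LSD1, 80.8 and 81.4 CPM in mutants given vehicle, and 109.5 and 101 CPM in wild type. The 3 groups did not overlap. It fell by 0.53 on the log2 scale with GSK-LSD1 against wild type (SE 0.10, 0.691-fold, 95% interval 0.595 to 0.802, edgeR adjusted p = 0.0120). Mutants given vehicle differed from wild type by -0.38 ± 0.10, which missed the threshold (adjusted p = 0.0751), and mutants given GSK-LSD1 differed from those given vehicle by -0.16 ± 0.10 (adjusted p = 0.968). The call against wild type was lost without wild-type replicate 1 (-0.48, adjusted p = 0.187) and without GSK-LSD1 replicate 2 (-0.52, adjusted p = 0.0549). It held in 17 of 19 alternative fits.

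Dlgap4 (chromosome 2, 156613705 to 156764363, plus strand), the broadly expressed SAPAP gene, had 168 and 169 CPM with GSK-LSD1, 187 and 181 CPM in mutants given vehicle, and 257 and 207 CPM in wild type. The groups did not overlap, and the wild-type pair was the most spread. It fell by 0.46 on the log2 scale with GSK-LSD1 against wild type (SE 0.11, 0.728-fold, interval 0.617 to 0.858, adjusted p = 0.0380). The value was -0.33 ± 0.11 for mutants given vehicle against wild type (adjusted p = 0.172) and -0.13 ± 0.11 for GSK-LSD1 against vehicle (adjusted p = 0.989). This call was less stable than that of Dlgap2, as it held in 8 of 19 alternative fits. Shank1, not called in the main fit, was called in 9 of the 19 for the same comparison. Without wild-type replicate 1 the Dlgap4 value was -0.30. The value under vehicle was then -0.17.

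Dlgap1 (chromosome 17, 69969073 to 70821413, plus strand), which encodes GKAP, the founding member of the family, had close replicates in each group. It had 553 and 545 CPM with GSK-LSD1, 575 and 568 CPM in mutants given vehicle, and 653 and 646 CPM in wild type. No 2 groups overlapped, yet the differences were small, at -0.24 ± 0.11 for GSK-LSD1 against wild type (adjusted p = 0.268) and -0.18 ± 0.11 for vehicle-treated mutants against wild type (adjusted p = 0.463). Dlgap3 (chromosome 4, 127169204 to 127237022, plus strand), the SAPAP gene best known from striatum, had 302 and 276 CPM with GSK-LSD1, 272 and 319 CPM in mutants given vehicle, and 284 and 296 CPM in wild type. Its groups overlapped in every comparison, and the 95% interval for GSK-LSD1 against wild type ran from 0.847-fold to 1.17-fold. Of the length-scaled SAPAP sum, Dlgap3 took 51.6% and 49.5% with GSK-LSD1, 47.1% and 51.5% in mutants given vehicle, and 42.5% and 46.0% in wild type. Dlgap2 took 9.22% and 9.49% with GSK-LSD1, 10.3% and 9.66% in mutants given vehicle, and 12.1% and 11.5% in wild type. In the plot of family composition the SAPAP sum shifts in all 4 mutant libraries towards Dlgap3.

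**Figure D2:**
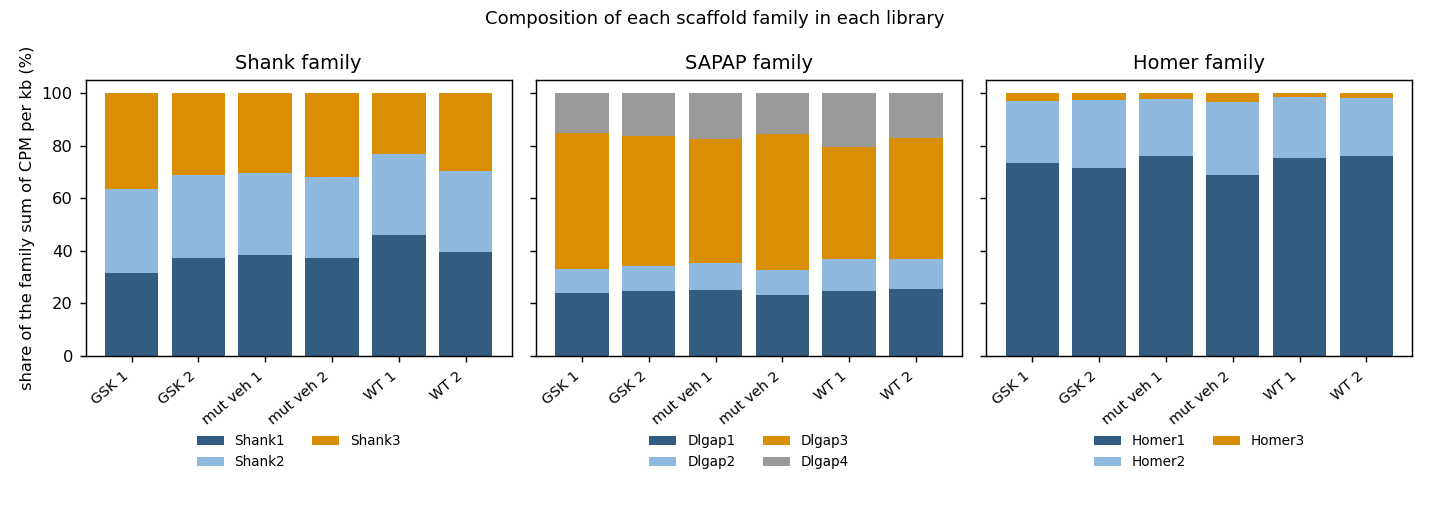
Share of each member in the sum of CPM per kilobase of its family (vertical axis, percent) in each of the 6 libraries, mutants given GSK-LSD1 first, then mutants given vehicle and wild type. Shank1 and Dlgap2 take smaller shares, and Shank3 and Dlgap3 larger ones, in the 4 mutant libraries than in the 2 wild-type libraries.

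The Homer genes did not pass in any comparison, and Homer3 alone had an unadjusted edgeR p under 0.05, in both comparisons with wild type. Homer1 (chromosome 13, 93299635 to 93405129, plus strand), whose internal start region is printed above, had 321 and 299.9 CPM with GSK-LSD1, 311 and 287 CPM in mutants given vehicle, and 318 and 328 CPM in wild type. The wild-type libraries lay above both vehicle-treated mutant libraries by a small margin. The log2 fold change was -0.11 ± 0.11 for mutants against wild type under vehicle (adjusted p = 0.721) and 0.05 ± 0.11 for GSK-LSD1 against vehicle (adjusted p = 0.999). Against wild type, mutants given GSK-LSD1 differed by -0.06 ± 0.11 (interval 0.823-fold to 1.12-fold, adjusted p = 0.856). A count per gene pools the short and long Homer1 transcripts, so a shift between them would not show.

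Homer2 (chromosome 7, 81600481 to 81707527, minus strand), a long-form Homer, had 109 and 115 CPM with GSK-LSD1, 92.1 and 122 CPM in mutants given vehicle, and 104 and 100.2 CPM in wild type. The vehicle-treated mutant libraries spanned both other groups, and no difference exceeded 0.13 ± 0.12 (adjusted p = 0.667). Homer3 (chromosome 8, 70282827 to 70294361, plus strand), which is best known from cerebellar Purkinje cells, was scarce. It had 87 and 48 reads with GSK-LSD1, 64 and 94 reads in mutants given vehicle, and 27 and 67 reads in wild type. In CPM these were 3.69 and 3.27 with GSK-LSD1, 2.94 and 4.26 in mutants given vehicle, and 1.85 and 2.42 in wild type. All 4 mutant libraries lay above both wild-type libraries. The log2 fold changes against wild type were 0.69 ± 0.31 with GSK-LSD1 (adjusted p = 0.297) and 0.73 ± 0.31 under vehicle (adjusted p = 0.284), with intervals as wide as 1.06-fold to 2.61-fold for the second. The exons of Homer3 overlap those of Ddx49 on the opposite strand over 25.4% of their length, and the strand setting of the counting is not given in the sources used here. Ddx49 had 18.2 and 17.3 CPM with GSK-LSD1, 16.9 and 17.1 CPM in mutants given vehicle, and 14.9 and 17.5 CPM in wild type. The overlap with another gene's exons was at most 4.16% of the exonic length for each of the other 9 members.

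**Figure D3:**
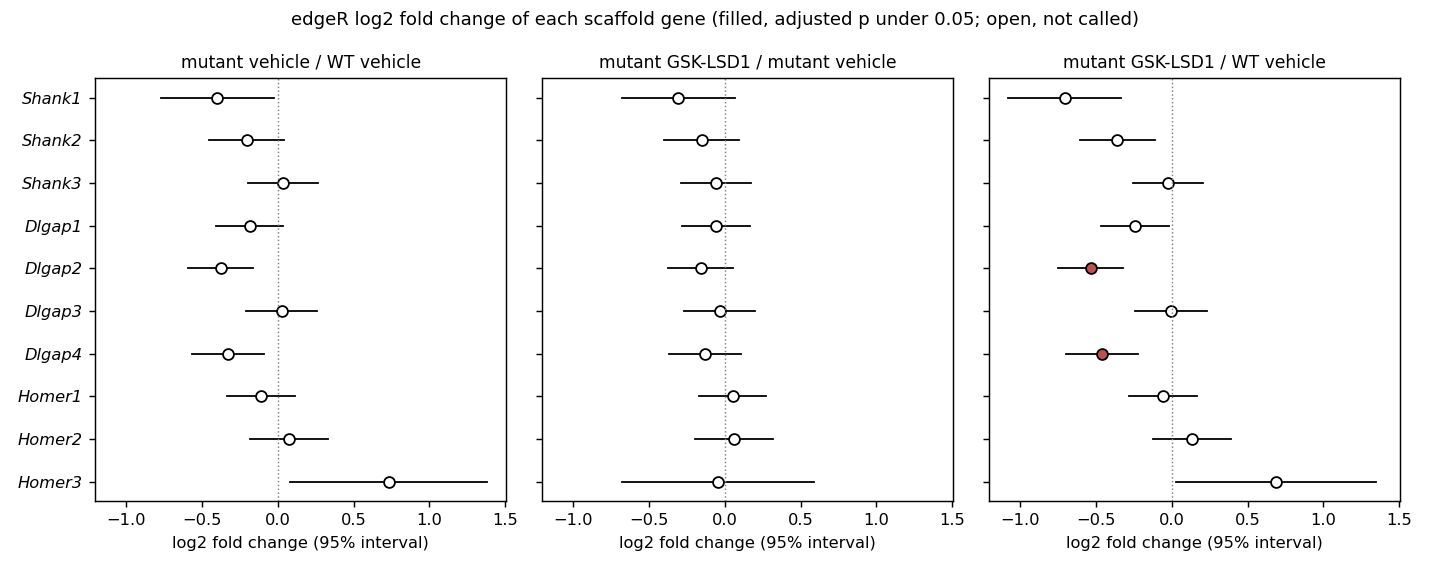
Log2 fold change (horizontal axis) of each scaffold gene with its 95% interval in the 3 comparisons; filled points passed an adjusted p under 0.05. Only Dlgap2 and Dlgap4 in mutants given GSK-LSD1 against wild type are filled, and the widest intervals belong to Homer3.

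For vehicle-treated mutants against wild type, 0 of the 10 genes were called by edgeR, where 1.27% of all tested genes were. At an unadjusted p under 0.05, 3 were lower (Shank1, Dlgap2 and Dlgap4) and 1 higher (Homer3), which is 40% of the members against 14% of all tested genes (8.24% lower and 5.81% higher). DESeq2 called 1 (Dlgap2, adjusted p = 0.0253) and limma-voom 0. The groups did not overlap for 6 of the 10, of which 5 were lower, against 46.2% of all tested genes, 23.1% lower. For GSK-LSD1 against vehicle in mutants, edgeR, DESeq2 and limma-voom each called 0 of the 10, and 0 had an unadjusted p under 0.05. The groups did not overlap for 5 of the 10, all lower, against 33.6% of all tested genes, 16.6% lower. The shares over all tested genes were 0.107% called by edgeR and 5.7% at an unadjusted p under 0.05. For GSK-LSD1 against wild type, 2 of the 10 (20%) were called, both lower, against 2.62% of all tested genes, of which 1.99% were lower. DESeq2 called 4 there (Shank1, Shank2, Dlgap2 and Dlgap4) and limma-voom 2 (Shank1 and Dlgap2). At an unadjusted p under 0.05, 5 members were lower and 1 higher, against 15.7% of all tested genes, 8.62% lower and 7.11% higher. The groups did not overlap for 7 of the 10, of which 5 were lower, against 45.8% of all tested genes, 22.4% lower. Scaled by library size alone, 253 genes were called, 111 of them higher, against 491 and 119 with TMM, and Dlgap2 was the 1 member called. With that scaling the groups did not overlap for 4, 4 and 8 of the 10 in the 3 comparisons, in the order above. The share over all tested genes with that scaling was not computed. Without wild-type replicate 1, 6 genes were called in either comparison with wild type, and 0 members. Both comparisons with wild type share the wild-type libraries, so they are not independent of each other.

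The median log2 fold change of the 10 genes was -0.15 in vehicle-treated mutants against wild type, -0.06 in GSK-LSD1 against vehicle, and -0.15 in GSK-LSD1 against wild type. The medians over all tested genes were 0.02, -7e-04 and 0.02 in the same comparisons. With a correction for exonic length and GC content in each library, the medians of the members were -0.05 against wild type under vehicle and -0.03 with GSK-LSD1. In that fit Dlgap2 was at -0.49 (adjusted p = 0.0150), Shank1 at -0.58 (adjusted p = 0.0248) and Dlgap4 at -0.37 (adjusted p = 0.0774) for GSK-LSD1 against wild type. The exons of 9 of the 10 genes were longer than the median tested gene (3.79 kb), Homer3 being the exception at 3.44 kb. Across 13809 annotated genes with a mean log2 CPM above 1, which are not independent replicates, centred log2 level correlated with log2 exonic length at r = -0.16 and -0.13 with GSK-LSD1, -0.13 and 0.09 in mutants given vehicle, and 0.15 and 0.15 in wild type. With GC content the correlations were 0.05 and 0.09 with GSK-LSD1, -0.19 and -0.13 in mutants given vehicle, and 0.19 and -0.10 in wild type. The part of these trends in the members' values beyond that correction was not tested.

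The map of levels around each gene's mean shows how alike the genes' profiles were over the 6 libraries. Shank3 and Dlgap3, which lie on different chromosomes, had almost the same profile. Both were highest in vehicle-treated mutant replicate 2 (0.16 and 0.13 above their means on the log2 scale) and lowest in replicate 1 of that group (-0.10 each). Among 10026 tested genes with a mean of at least 10 CPM, Dlgap3 was the nearest to Shank3, with a root mean square difference of 0.016 in centred log2 CPM against a median of 0.16 over these genes. Zfp326 (0.0163) and Ero1lb (0.0262) came next. After the length and GC correction, a check chosen after the data were seen, Dlgap3 was at rank 2 (0.0286). The measure has only 6 points, and Shank3 varied little (SD 0.0929), so it describes these libraries and says nothing of shared control. Dlgap2 and Dlgap4 were nearest to each other (0.0689), Shank1 and Shank2 were each nearest to Dlgap4 (0.163 and 0.0868), and Dlgap1 and Homer1 were nearest to each other (0.0854). Homer2 was nearest to Shank3 (0.101), and Homer3 stood apart from all others, with Homer2 nearest (0.324). Shank3 and Dlgap3 are both GC-rich, at 62.36% and 63.94% of their longest transcripts, against a median of 49.2%. Shank1, Homer3 and Dlgap4, with other profiles, are at 61.45%, 60.16% and 59.39%. The part of GC content in these profiles was not tested beyond the correction above.

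**Figure D4:**
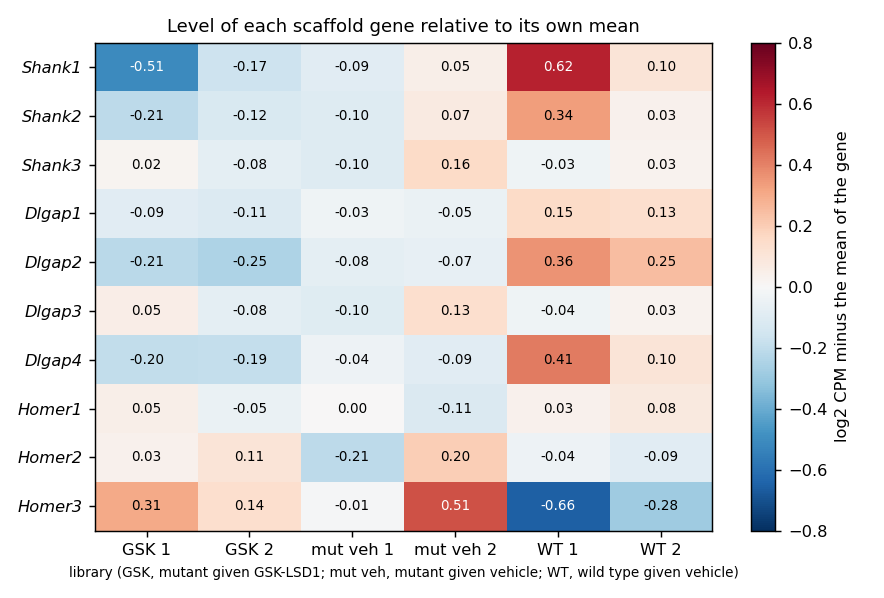
Log2 CPM of each scaffold gene minus its own mean over the 6 libraries (colour and printed value), one column per library, mutants given GSK-LSD1 first and wild type last. Shank1, Shank2, Dlgap1, Dlgap2 and Dlgap4 are above their means in both wild-type libraries, Shank1 most of all in wild-type replicate 1 (0.62), while Shank3 and Dlgap3 share 1 shallow pattern.

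Of 23 genes for proteins that bind these scaffolds, 1 fell and 0 rose in vehicle-treated mutants against wild type, 4 fell and 0 rose with GSK-LSD1 against wild type, and 0 were called for GSK-LSD1 against vehicle by edgeR (1 at an unadjusted p under 0.05), DESeq2 or limma-voom. Those shares, 4.35% and 17.4%, stand beside 0.994% and 1.99% of all tested genes called lower. Cacna1d, the L-type calcium channel that the Shank PDZ domain binds, had 42.0 and 37.2 CPM with GSK-LSD1, 44.3 and 45.8 CPM in mutants given vehicle, and 71.1 and 59.4 CPM in wild type. No 2 groups overlapped. It fell against wild type both with GSK-LSD1 (-0.71 ± 0.12, adjusted p = 0.00544) and under vehicle (-0.53 ± 0.12, adjusted p = 0.0351). Adgrl1, a latrophilin that binds the same PDZ domain, was lower in mutants given GSK-LSD1 than in wild type (-0.49 ± 0.11, adjusted p = 0.0301). It had 547 and 506 CPM with GSK-LSD1, 546 and 553 CPM in mutants given vehicle, and 798 and 678 CPM in wild type. Of the Homer partners, the ryanodine receptor Ryr2 was lower in mutants given GSK-LSD1 than in wild type (-0.48 ± 0.11, adjusted p = 0.0292). It had 477 and 511 CPM with GSK-LSD1, 533 and 479 CPM in mutants given vehicle, and 724 and 654 CPM in wild type. The dynamin Dnm3 was lower in the same comparison, just past the threshold (-0.47 ± 0.12, adjusted p = 0.0498). For GSK-LSD1 against vehicle Cacna1d was at -0.18 ± 0.12, Adgrl1 at -0.06 ± 0.11, Ryr2 at -0.03 ± 0.11 and Dnm3 at -0.07 ± 0.12. Their edgeR adjusted p-values there were 0.968, 0.999, 0.999 and 0.999. All 4 of these genes lay lower in each mutant library than in both wild-type libraries. They were picked by their call against those wild-type libraries, so this order is not separate support. With the length and GC correction 0 partners were called under vehicle and 1 with GSK-LSD1 against wild type, and without wild-type replicate 1 the count was 0 in both. Leaving out either vehicle-treated mutant library also left 0 under vehicle, either GSK-LSD1 library gave 3 there, and with GSK-LSD1 against wild type the counts were 2 without GSK-LSD1 replicate 1 and 1 without replicate 2.

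Other receptors bound by Homer did not pass. Under vehicle against wild type the metabotropic glutamate receptor Grm5 was at -0.29 ± 0.11 (edgeR adjusted p = 0.195). For GSK-LSD1 against vehicle Grm5 was at 0.13 ± 0.11 and the inositol trisphosphate receptor Itpr1 at -0.13 ± 0.12. Of the 6 SAPAP partners 0 were called by edgeR in any comparison, and 2 had positive and 4 negative values in each. At an unadjusted edgeR p under 0.05, 1 was lower in each comparison, and 1 was higher with GSK-LSD1 against wild type. The PSD-95 gene Dlg4 differed from wild type by -0.08 ± 0.11 under vehicle and by -0.16 ± 0.11 with GSK-LSD1. Dlg3 was at -0.26 ± 0.11 under vehicle (adjusted p = 0.288). The dynein light chain Dynll2, which binds the SAPAP protein GKAP, was at -0.23 ± 0.11 for GSK-LSD1 against vehicle (adjusted p = 0.875) and -0.33 ± 0.11 against wild type (adjusted p = 0.115).

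Some genes that neuronal activity switches on passed the test. Of 13 such genes, 4 (30.8%) fell in vehicle-treated mutants against wild type and 0 rose, against 0.994% of all tested genes called lower. Among the 4 were the transcription factors Egr4 (-0.94 ± 0.15, edgeR adjusted p = 0.0117), Egr2 (-1.20 ± 0.25, adjusted p = 0.0302) and Fosb (-0.96 ± 0.20, adjusted p = 0.0302). For GSK-LSD1 against vehicle all 13 had positive values and 2 (15.4%, against 0.102% of all tested genes called higher) rose, Egr2 (2.36 ± 0.24, adjusted p = 1.07e-04) and Egr4 (0.89 ± 0.15, adjusted p = 0.0238). Egr2 had 12.5 and 18.5 CPM with GSK-LSD1, 2.85 and 3.13 CPM in mutants given vehicle, and 5.61 and 7.91 CPM in wild type. The median of the 13 was 0.99 for GSK-LSD1 against vehicle. There 7 (53.8%) had an unadjusted edgeR p under 0.05, against 5.7% of all tested genes. Homer1 was at 0.05 there, with an interval from 0.889-fold to 1.21-fold. The growth factor gene Bdnf and the pentraxin gene Nptx2, picked after their values were seen, lay near it at 0.01 ± 0.12 and 0.10 ± 0.12. The difference between Homer1 and these genes was not tested. With GSK-LSD1 against wild type Egr2 rose (1.17 ± 0.23, adjusted p = 0.0133) and Nptx2 fell (-0.47 ± 0.12, adjusted p = 0.0479).

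**Figure D5:**
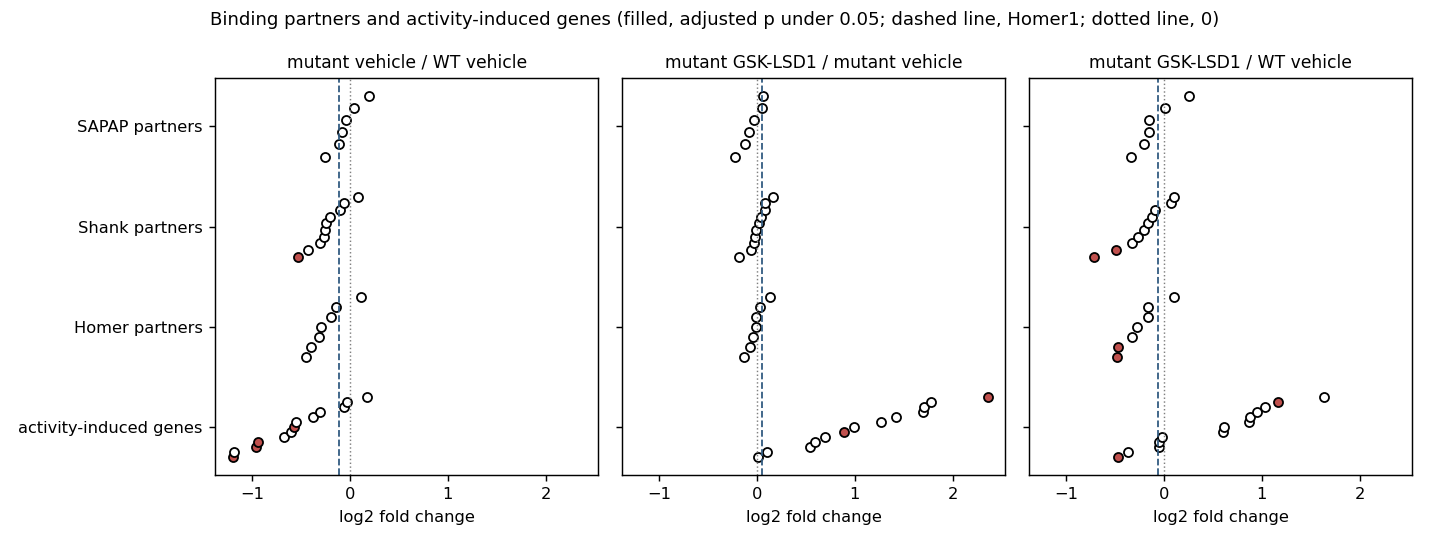
Log2 fold change (horizontal axis) of the SAPAP, Shank and Homer partners and of activity-induced genes in the 3 comparisons, 1 point per gene, with filled points called, the dashed line at Homer1 and the dotted line at 0. For GSK-LSD1 against vehicle the activity-induced genes range from 0.01 (Bdnf) to 2.36 (Egr2), with 2 of 13 filled, while the partners stay within 0.23 of 0 there.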

How the data were processed

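Each deposited file holds the raw counts of 1 library by gene symbol. Per the submitters' processing notes, the authors used cutadapt, TopHat2, SAMtools and featureCounts with mm10 (GRCm38), and edgeR is also named. No version, annotation release or strand setting is given in the sources used here. Per the labels' protocols, samples of a group are biological duplicates. The members and lists were chosen with earlier results of these data known.

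The counts were filtered with filterByExpr, scaled by TMM and fitted with a robust edgeR quasi-likelihood model of 3 groups over 6 libraries (R 4.3.3, edgeR 4.0.16, 3 residual degrees of freedom). Two-sided p-values were adjusted by the Benjamini-Hochberg method over all 18705 tested genes at 0.05. Depth was 14133834 to 28646960 reads, and 3 counts in a library correspond to 0.105 to 0.212 CPM, which covers counting error only. The 2 libraries of each group differed beyond counting noise (chi-square statistic over its degrees of freedom 9.97 to 13.3). The standard error is the absolute log2 fold change over the square root of F. Exonic lengths and coordinates come from GENCODE M21 (GRCm38), matching 98.7% of tested symbols, and GC content from its longest transcripts. Centred profiles used log2 CPM with a prior count of 2.

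Named genes were all members, up to 3 partner or activity-induced genes per list and comparison with the smallest p, and the nearest profiles. Dlg4 and overlapping genes were added after their values were seen. One gene that the rule names is not reported here. Alternatives included DESeq2 1.42.0, limma-voom (limma 3.58.1), other scalings and filters, and each library left out. The fitting procedure was also run on simulated counts that lacked the length, GC and marker trends of these libraries. That run gives no support for the calls here. Marker lists of microglia, endothelium, inhibitory and striatal projection neurons, and hypothalamus were also summed: 358 to 483, 163 to 227, 443 to 529.9, 90.0 to 123 and 1.52 to 3.08 CPM. Of the 9 hypothalamic markers 2 to 7 were at 0 in each library, and no marker of another list was.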

Additional observations from a re-analysis of the deposited data

How the results depend on the processing

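In each comparison 19 alternative fits were made, each changing 1 setting except the replicate block joined with the length and GC correction. Under vehicle, mutants against wild type, the 238 genes called became 141 with upper quartile scaling, 35 with library size scaling, 807 without the filter, 590 with DESeq2, 137 with limma-voom, 11 without robust estimation, 524 in a fit of 4 libraries, 136 with the length and GC correction, 85 with an oligodendrocyte covariate, and 6 to 656 with 1 library left out. The members called there (0) were 2 without the filter (Shank1 and Dlgap2), 1 with DESeq2, and 0 to 1 with a library left out. Their median, -0.15, was -0.0753 with library size scaling, -0.0496 with the length and GC correction, and -0.0497 with that correction and the block, -0.0976 with the covariate and -0.0898 without wild-type replicate 1. The partners called there (1) were 0 with upper quartile and library size scaling, limma-voom, no robust estimation, the length and GC correction with or without the block, and the covariate. They were 4 without the filter, 5 with DESeq2, 3 in the fit of 4 libraries, and 0 to 3 with a library left out.

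For GSK-LSD1 against vehicle, 20 genes became 106 without the filter, 35 with DESeq2 and 10 to 83 with a library left out, while 0 members and 0 partners were called in every fit. The members' median ranged from -0.149 to -0.0226 with a library left out (-0.06 with all 6) and was -0.12 with the length and GC correction. For GSK-LSD1 against wild type, 491 genes became 253 with library size scaling, 962 without the filter, 793 with DESeq2 and 6 to 631 with a library left out. The 2 members became 1 with upper quartile scaling, library size scaling and the fit of 4 libraries, 4 with DESeq2, and 0 to 3 with a library left out. Their median was -0.0691 with library size scaling, -0.0331 with the length and GC correction, and -0.035 with that correction and the block. The 4 partners became 1 with library size scaling, 2 in the fit of 4 libraries, 1 with the length and GC correction, 2 with that and the block, and 0 to 4 with a library left out. The cause of these moves was not tested.

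Values near 0 changed sign under some settings. With 1 library left out, under vehicle against wild type Shank3 ranged from -0.10 to 0.15, Dlgap3 from -0.0925 to 0.13 and Homer2 from -0.15 to 0.26. In that comparison the length and GC correction moved Shank3 from 0.03 to 0.20, Dlgap3 from 0.03 to 0.14 and Homer2 from 0.07 to 0.13. For GSK-LSD1 against vehicle Shank3 ranged from -0.18 to 0.0741, Dlgap3 from -0.14 to 0.0854 and Homer2 from -0.13 to 0.28 with 1 library left out. For GSK-LSD1 against wild type, Shank3 (-0.03), Dlgap3 (-0.0053) and Homer1 (-0.06) became 0.0559, 0.0758 and 0.0227 with library size scaling and 0.0746, 0.0267 and 0.0141 with the length and GC correction. With the longest coding transcript as length, 6 of 10 members kept their rank, and mean shares were 32.1% for Shank2, 39.0% for Dlgap1, 9.04% for Dlgap2, 33.0% for Dlgap3, 19.0% for Dlgap4, 83.3% for Homer1, 14.9% for Homer2 and 1.81% for Homer3.

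Replicate numbers showed no strong pairing of the samples: same-numbered deviations correlated at -0.08, 0.16 and -0.07 over genes in the 3 comparisons. With 1 replicate difference per group this check cannot exclude a pairing. With a replicate block, 233, 18 and 505 genes were called, and Dlgap2 (-0.53, edgeR adjusted p = 0.0191) and Dlgap4 (-0.45, adjusted p = 0.0440) stayed called for GSK-LSD1 against wild type. Homer3 rested on 27 to 94 reads a library, and its intervals were the widest of the members'.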

Other observations

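Dlgap5, which shares its family name with the SAPAP genes and is known as a spindle protein of dividing cells, had 1 and 4 reads with GSK-LSD1, 2 and 11 reads in mutants given vehicle, and 2 and 3 reads in wild type, and was too scarce to be tested. The lincRNA Gm15609, which lies opposite Shank3 and overlaps 2.95% of its exonic length, had 10 and 17 reads with GSK-LSD1, 14 and 29 reads in mutants given vehicle, and 15 and 15 reads in wild type. Its log2 fold change under vehicle against wild type was 0.37 ± 0.65 (edgeR adjusted p = 0.867).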
